A study of Homo sapiens with 6 samples.

Results

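Homologous recombination and Fanconi repair genes were examined in the human lung adenocarcinoma cell line A549, cultured in 2 kinds of hydrogel that the labels call AlgLung and S-AlgLung. The labels do not spell out the S. The series title concerns sulfation of the tumour matrix. They give 3 replicates per hydrogel and say neither whether these were separate cultures nor how long cells stayed in the gel, so p-values cover the spread among these 6 libraries only, and that spread may be technical. Each group is the same line with no other treatment named, maintained in DMEM/F12 with serum and antibiotics. All 37 listed repair and checkpoint genes had a row among the 62703 genes of the count table, and all 37 were among the 18544 with enough counts to test. With earlier results of these data known, they were separated by textbook knowledge into 18 genes whose transcription rises with S phase or G2 (cell-cycle regulated members) and 19 made at a steadier rate (constitutive members), of which 8 assignments in all are borderline.

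Homologous recombination mends broken DNA by copying the intact sister chromatid, which exists only after replication. Nucleases first cut back the broken ends, BRCA1 with BARD1 and then PALB2 and BRCA2 act on the exposed strand, and further factors help it pair with the sister. The Fanconi core complex attaches ubiquitin to the FANCD2 and FANCI pair at DNA crosslinks, and the kinases ATM and ATR signal damage through CHEK2 and CHEK1. Many of these genes are repressed in resting cells by E2F and DREAM complexes and transcribed as cells enter S phase. In bulk RNA, fewer cells in those phases and less RNA per cell cannot be told apart.

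RefSeq promoter windows (GRCh38.p14) were matched for 34 members, all but NBN, FANCI and RAD54B. In the 250 bases before each start, exact letters linked to cell-cycle transcription were searched on both strands: TTTCCCGC and TTTGGCGC for E2F, TTTGAA and TTCGAA for the cell-cycle homology region, and CCAAT. No motif contains another, and TTCGAA is its own reverse complement. Stretches free of annotated exons are shown for 3 of the 4 members called lower in S-AlgLung (POLQ, BARD1 and BRCA1, but not EXO1). The constitutive FANCC is shown as the one member with E2F letters in the 250 bases. Each is read 5′ to 3′ on the minus strand, along the gene, with matches in capitals. They lie at chr3:121546007-121546238, chr2:214809712-214809933, chr17:43125484-43125550 and chr9:95317716-95317959, in that order.
POLQ: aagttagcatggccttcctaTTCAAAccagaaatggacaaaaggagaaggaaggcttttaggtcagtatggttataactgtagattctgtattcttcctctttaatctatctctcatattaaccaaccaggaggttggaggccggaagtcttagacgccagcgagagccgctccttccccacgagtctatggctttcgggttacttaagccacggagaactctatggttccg
BARD1: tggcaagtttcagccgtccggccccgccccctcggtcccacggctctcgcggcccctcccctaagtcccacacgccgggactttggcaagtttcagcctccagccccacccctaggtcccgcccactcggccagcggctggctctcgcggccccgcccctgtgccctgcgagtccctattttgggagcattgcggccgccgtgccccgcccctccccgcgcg
BRCA1: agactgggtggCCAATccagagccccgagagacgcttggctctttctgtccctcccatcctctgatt
FANCC: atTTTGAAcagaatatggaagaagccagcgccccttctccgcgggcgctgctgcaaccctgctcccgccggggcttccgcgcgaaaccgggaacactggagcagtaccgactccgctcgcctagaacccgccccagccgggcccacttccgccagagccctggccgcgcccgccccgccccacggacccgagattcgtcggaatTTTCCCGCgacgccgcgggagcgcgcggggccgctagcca

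POLQ carries the reverse complement of TTTGAA, BRCA1 carries CCAAT, and BARD1 carries none of the letters. Among the 16 cell-cycle regulated members with a window, 0 held TTTCCCGC, against 1.7% of the 27305 genes in the table, and 0 held TTTGGCGC (0.681%) or TTCGAA (1.5%). TTTGAA was present in BRIP1 and POLQ, 12.5% of these members against 16.1% of all genes. CCAAT was present in 8 of the 16 (50%) and in 8 of 18 constitutive members (44.4%), against 37% of all genes. With the 50 bases after the start added, a window chosen after seeing the data, TTTCCCGC was found in FANCD2, MSH6 and XRCC2, 18.8% of the cell-cycle regulated members against 1.98% of all genes. These matches describe letters and show no binding.

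Expression was compared between the gels, the contrast the study was designed for. In S-AlgLung, EXO1, POLQ, BARD1 and BRCA1 were lower by 2.11-fold to 4.06-fold, and 0 members were called higher at an adjusted p under 0.05. These 4 are 10.8% of the members, whereas 1.99% of all tested genes were called lower and 3.15% higher. With scaling by total counts alone these shares were 1.81% lower and 1.81% higher. All 4 belong to the 18 cell-cycle regulated members. None of the 19 constitutive members was called in either direction by edgeR, by DESeq2 (all genes 2.15% lower and 3.2% higher) or by limma-voom (1.89% and 2.67%). At an unadjusted p under 0.05, 12 cell-cycle regulated and 2 constitutive members were lower and 0 higher, against 5.81% of all tested genes lower and 9.1% higher. That difference between the classes was not tested.

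Every cell-cycle regulated member had a log2 fold change below 0, as did 13 of 19 constitutive members and 46.6% of all tested genes. The median log2 fold change was -0.90 for the cell-cycle regulated members and -0.17 for the constitutive ones, against 0.03 for all tested genes. In 12 members the 3 S-AlgLung values lay below all AlgLung values (32.4%, against 8.05% of all tested genes), and 9 of the 12 were cell-cycle regulated. In 2 members, RAD51B and XRCC3, they lay above (10.4% of all tested genes did so). Leaving the 8 borderline assignments out gave medians of -1.01 and -0.15.

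**Figure D1:**
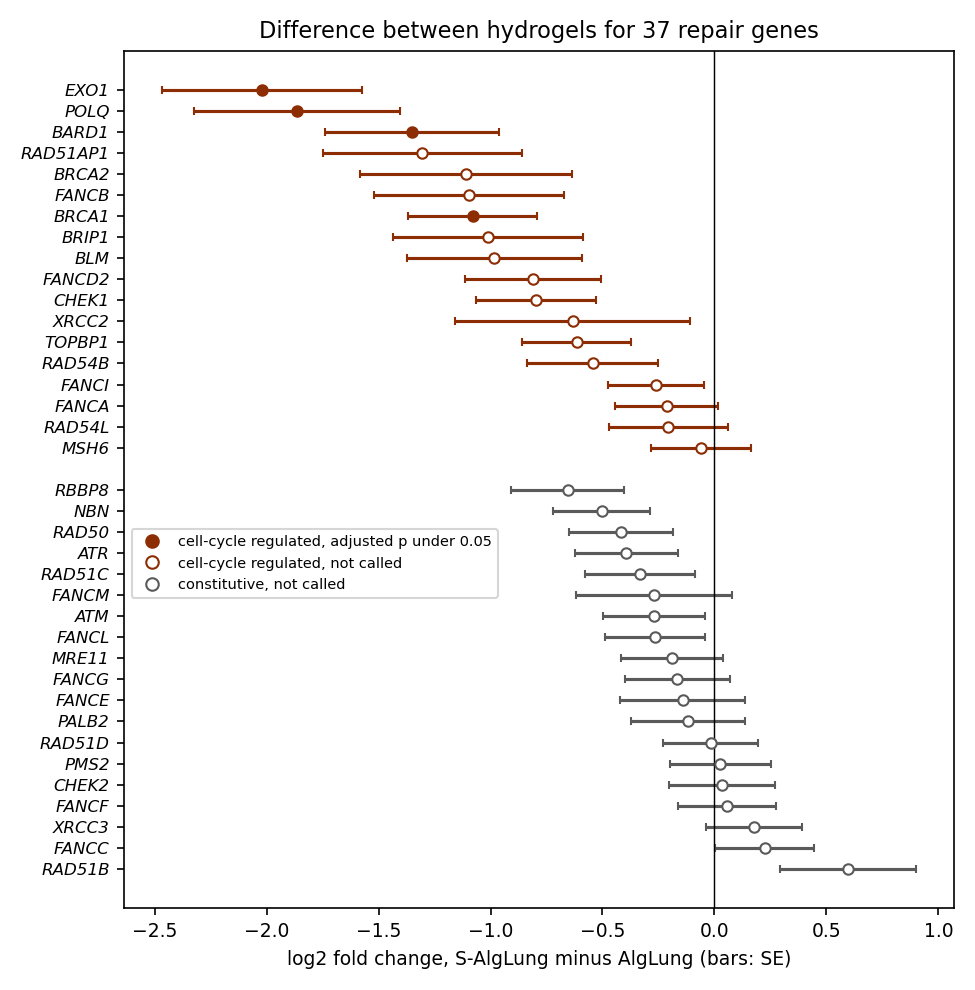
Log2 fold change (S-AlgLung minus AlgLung) of the 37 repair genes, with bars of 1 SE; filled points passed an adjusted p under 0.05 (edgeR). The 4 filled points are EXO1, POLQ, BARD1 and BRCA1, and the constitutive genes lie between -0.66 and 0.60.

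End resection is where the largest difference among the members lay. EXO1 (chromosome 1, 241847967 to 241895148, GRCh38), the exonuclease of long-range resection, was at 2.07, 1.30 and 2.56 CPM (counts scaled to library size, with TMM factors) in AlgLung replicates 1, 2 and 3 and at 0.906, 0.337 and 0.248 CPM in S-AlgLung. The groups did not overlap, and the lowest AlgLung value was well clear of the 2 lower S-AlgLung values. Its log2 fold change came to -2.02, with an SE of 0.45 and an adjusted p of 0.00438, and EXO1 was called lower in all 15 alternative fits. The gene rested on 180 counts in all, between 7 and 62 per library. BLM, the Bloom syndrome helicase that works with EXO1, was at 1.34, 1.35 and 2.11 CPM in AlgLung and 0.770, 1.10 and 0.568 CPM in S-AlgLung, also without overlap (log2 fold change -0.98, SE 0.39, adjusted p = 0.192).

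The sensors that find a break and start its trimming were more abundant and closer between gels. NBN, a subunit of the MRN complex, was at 36.7, 24.4 and 32.8 CPM in AlgLung and 24.4, 20.9 and 21.0 CPM in S-AlgLung. It had a fitted log2 difference of -0.50 (SE 0.22, adjusted p = 0.243). Its groups only just missed each other, with AlgLung replicate 2 beside S-AlgLung replicate 1. RBBP8, which encodes the MRN cofactor CtIP, ran from 5.61 to 8.73 CPM in AlgLung and from 4.19 to 5.03 CPM in S-AlgLung, again without overlap (log2 fold change -0.66, SE 0.25, adjusted p = 0.174). MRE11, the nuclease of the complex, and RAD50, its ATPase, had overlapping groups and log2 fold changes of -0.19 and -0.42. Most exon bases of RAD50 (76.9%) are shared with an unnamed gene on the same strand that had 115% of its counts.

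POLQ (chromosome 3, 121431431 to 121545988), the polymerase of theta-mediated end joining, was at 1.95, 0.808 and 0.951 CPM in AlgLung and at 0.362, 0.337 and 0.319 CPM in S-AlgLung. All S-AlgLung values were close together and below every AlgLung value, whereas AlgLung replicate 1 stood above the other AlgLung libraries. On 117 counts in all, the log2 fold change was -1.86, with an SE of 0.46 and an adjusted p of 0.0119. POLQ no longer passed with AlgLung replicate 1 left out (-1.41, adjusted p = 0.181) or with S-AlgLung replicate 1 left out (-1.91, adjusted p = 0.0606).

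In the BRCA group, BRCA1 and BARD1, which form one ubiquitin ligase, were both lower in S-AlgLung. BARD1 (chromosome 2, 214725646 to 214809683) was at 1.88, 1.26 and 1.70 CPM in AlgLung and 0.589, 0.506 and 0.781 CPM in S-AlgLung, without overlap (log2 fold change -1.35, SE 0.39, adjusted p = 0.0372). Its call was lost when any library except S-AlgLung replicate 3 was left out (adjusted p from 0.0651 to 0.148), with total-count scaling (0.0608) and after offsets for GC content and length (0.051), while its log2 fold change in all alternative fits stayed between -1.59 and -1.16. BRCA1 (chromosome 17, 43044295 to 43170245) was at 7.58, 5.21 and 7.19 CPM in AlgLung and 3.58, 4.05 and 1.88 CPM in S-AlgLung. No S-AlgLung value reached the lowest AlgLung value, and S-AlgLung replicate 3 was the lowest of all. BRCA1 had a fitted log2 difference of -1.08 (SE 0.29, adjusted p = 0.0208). It missed the threshold when either gel's replicate 1 was left out, with an adjusted p of 0.101 for AlgLung and 0.053 for S-AlgLung, and after GC and length offsets (0.0906). An unnamed gene on the same strand shares 0.847% of its exon bases and had 127% of its counts.

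The 3 other members of the BRCA group were not called. BRCA2, which acts after resection, was at 1.30, 0.539 and 0.868 CPM in AlgLung and 0.589, 0.211 and 0.461 CPM in S-AlgLung, with AlgLung replicate 2 inside the S-AlgLung range (log2 fold change -1.11, SE 0.47, adjusted p = 0.243). It had 98 counts in all libraries together, which limits its precision. BRIP1, a helicase that binds BRCA1, was at -1.01 (SE 0.42, adjusted p = 0.230), also with AlgLung replicate 2 (0.674 CPM) inside the range of S-AlgLung. PALB2, the bridge between BRCA1 and BRCA2 and a constitutive member, was between 4.85 and 8.35 CPM in AlgLung and between 5.15 and 6.88 CPM in S-AlgLung. Its S-AlgLung values lay entirely inside the AlgLung range (log2 fold change -0.12, SE 0.25).

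Among the strand exchange factors, RAD51AP1, which stimulates strand pairing, was at 1.38, 0.764 and 0.992 CPM in AlgLung and 0.589, 0.295 and 0.390 CPM in S-AlgLung. The groups did not overlap, but the gene was not called (log2 fold change -1.31, SE 0.44, adjusted p = 0.0981), nor in any of the 14 alternative fits that tested it. The translocase genes RAD54B and RAD54L had overlapping groups, with log2 fold changes of -0.54 (SE 0.29) and -0.21 (SE 0.27). RAD54L shares 19.9% of its exon bases with LRRC41 on the other strand, which had 2351% of its counts, and RAD54B shares 66.0% with FSBP on its own strand.

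RAD51B, RAD51C, RAD51D, XRCC2 and XRCC3, which also act in strand exchange, included the member with the highest fold change. RAD51B (chromosome 14, 67819779 to 68730218) was at 1.76, 1.98 and 1.61 CPM in AlgLung and at 2.81, 2.699 and 2.59 CPM in S-AlgLung. Every S-AlgLung value was above every AlgLung value, and the spread within each gel was small, yet the gene was not called (log2 fold change 0.60, SE 0.30, adjusted p = 0.365), nor in any alternative fit. XRCC3 also had separate groups, from 11.0 to 11.8 CPM and from 12.5 to 13.1 CPM (log2 fold change 0.18, SE 0.21), but 76.7% of its exon bases lie in KLC1 on the other strand. RAD51C was at 5.21 to 7.40 CPM and 5.00 to 5.21 CPM (log2 fold change -0.33, SE 0.25), and RAD51D was at -0.02 (SE 0.21). XRCC2, the one of these genes placed with the cell-cycle regulated members, had only 85 counts in all and overlapping groups (log2 fold change -0.63, SE 0.52).

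**Figure D2:**
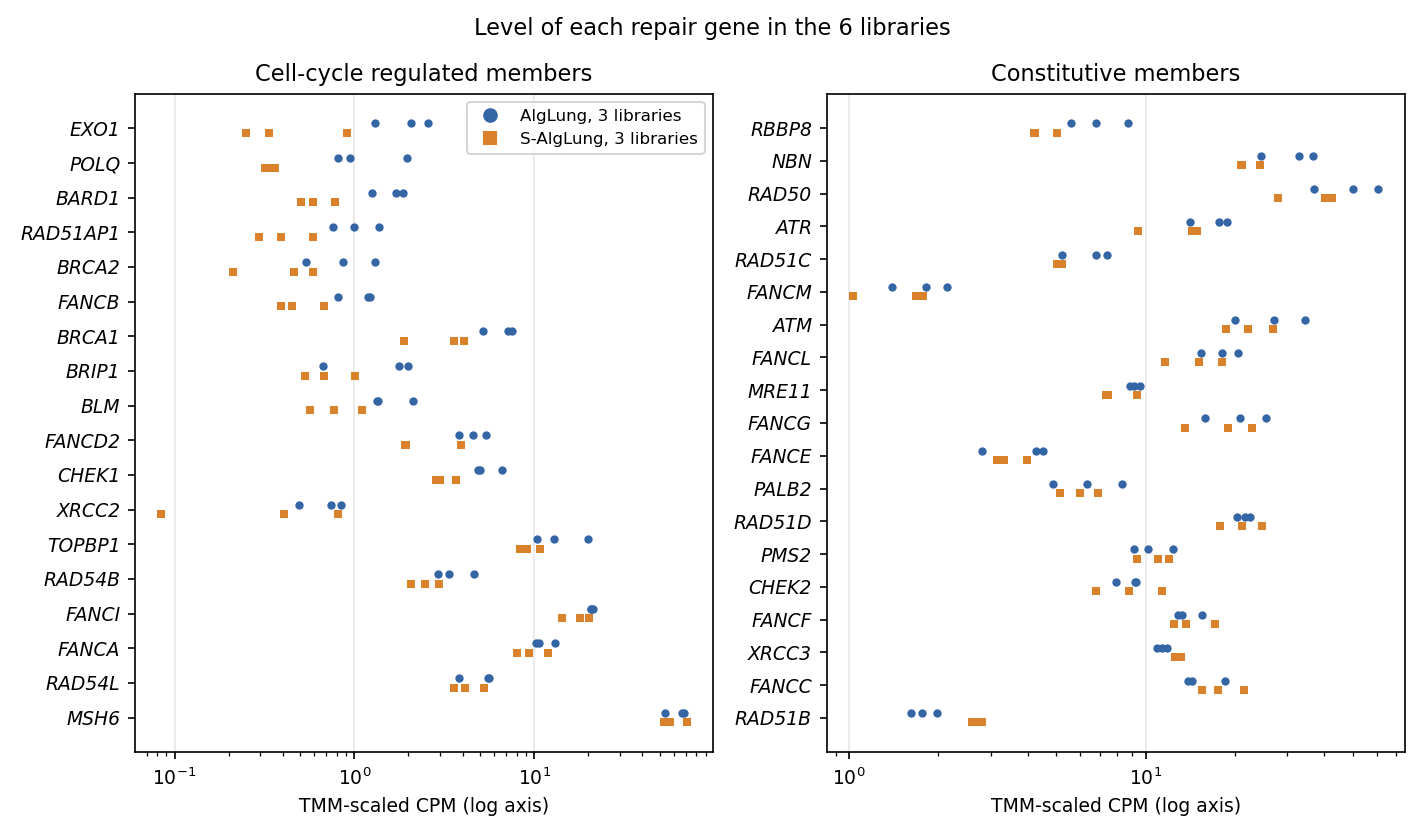
TMM-scaled CPM (log axis) of each member in the 3 AlgLung libraries (circles) and the 3 S-AlgLung libraries (squares), cell-cycle regulated members on the left and constitutive members on the right. The groups are apart for EXO1, POLQ, BARD1 and BRCA1, and apart in the other direction for RAD51B and XRCC3.

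No gene of the Fanconi core complex was called, where 1.99% of all tested genes were called lower and 3.15% higher. The 8 members of the complex had a median log2 fold change of -0.19. FANCB, the X-linked member, was the lowest, at 1.23, 0.808 and 1.20 CPM in AlgLung and 0.453, 0.675 and 0.390 CPM in S-AlgLung, without overlap (log2 fold change -1.10, SE 0.42, adjusted p = 0.177). The other 7 lay between -0.27 and 0.22 and had overlapping groups. FANCC was the highest of them (between 13.9 and 18.5 CPM in AlgLung and between 15.5 and 21.4 CPM in S-AlgLung, SE 0.22). FANCM, the helicase that anchors the complex to DNA, and FANCL, its ubiquitin ligase subunit, were both at -0.27 (SE 0.35 and 0.22). FANCA, FANCG and FANCE were at -0.21, -0.17 and -0.14, and FANCF was at 0.06.

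The FANCD2 and FANCI pair, the substrate of that complex, showed unequal values. FANCD2 was at 5.40, 3.82 and 4.55 CPM in AlgLung and at 1.90, 1.94 and 3.94 CPM in S-AlgLung. S-AlgLung replicate 3 fell inside the AlgLung range while the other S-AlgLung libraries were below it (log2 fold change -0.81, SE 0.30, adjusted p = 0.153). Without that library FANCD2 was called lower (log2 fold change -1.29, adjusted p = 0.000623). FANCI was at 20.8, 20.7 and 21.1 CPM in AlgLung and at 14.3, 20.1 and 17.9 CPM in S-AlgLung, so the groups did not overlap, although S-AlgLung replicate 2 was close to the AlgLung values (log2 fold change -0.26, SE 0.21, adjusted p = 0.663). Whether the members of the pair differ in response was not tested.

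No checkpoint kinase gene was called, where 1.99% of all tested genes were called lower and 3.15% higher. CHEK1, the kinase activated by ATR, was at 6.62, 4.85 and 5.00 CPM in AlgLung and 2.99, 3.67 and 2.84 CPM in S-AlgLung. Every S-AlgLung value was below every AlgLung value (log2 fold change -0.80, SE 0.27, adjusted p = 0.0899). Its downstream counterpart in the ATM branch, CHEK2, was at 0.03 (SE 0.24), with S-AlgLung values of 6.79 to 11.4 CPM around the AlgLung values of 7.93 to 9.25 CPM. ATM and ATR themselves overlapped between gels, at -0.27 (SE 0.23) and -0.39 (SE 0.23). TOPBP1, which activates ATR, was at 19.9, 10.4 and 12.9 CPM and at 10.8, 8.39 and 9.09 CPM, with AlgLung replicate 2 inside the S-AlgLung range (log2 fold change -0.62, SE 0.24, adjusted p = 0.189).

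The mismatch repair genes hardly differed in value. MSH6, a subunit of the mismatch sensor, was at 66.6, 53.4 and 68.3 CPM in AlgLung and 57.3, 70.7 and 52.5 CPM in S-AlgLung (log2 fold change -0.06, SE 0.22). PMS2, a subunit of the nuclease that acts after it, was at 0.03 (SE 0.23), and its sign turned under 7 of 15 alternative fits. MSH6 alone made up between 41.7% and 45.1% of the summed CPM of the cell-cycle regulated members in AlgLung and between 47.2% and 54.4% in S-AlgLung. It therefore weighs heavily on any sum over them.

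Levels differed between members far more than between gels. Per kilobase of exon, AlgLung means ran from 0.0626 CPM for BRCA2 to 4.66 CPM for RAD50. The exon lengths come from the deposited table and join all annotated transcripts, which understates genes with many rare exons. The classes differed in level as well as in fold change: the median AlgLung mean was 2.81 CPM for cell-cycle regulated and 11.4 CPM for constitutive members, and 9 of 18 against 2 of 19 were under 2 CPM. The median SE of the log2 fold change was 0.35 and 0.23. Median GC content of the longest transcript was 41.2% and 42.8%, against 49.5% for all tested genes. The part of level and GC content in the class difference was not tested.

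The members with the smallest differences in the cell-cycle regulated class shared exons with other genes. In all, 17 of 37 members overlap another gene whose counts came to 25% or more of their own. Whether counting used strand, and whether reads over shared bases were kept or dropped, is not stated in the sources used here. Bases shared with a gene on the other strand may therefore have added reads to a member, removed some or done neither. These cases cannot be told apart. For BRCA1, CHEK1, FANCG, RAD50, RAD51D and RAD54B such a partner lies on the same strand, where a strand setting would not separate the reads of member and partner. Shared bases made up 0.219% (FANCD2) to 76.9% (RAD50) of a member's exon bases. Of the 18 cell-cycle regulated members, the 9 without such a neighbour had a median log2 fold change of -1.11, and all 9 were at -0.63 or below. The 9 with one had a median of -0.54, and FANCI, FANCA, RAD54L and MSH6, the 4 nearest to 0, were all among them. Their partners on the other strand, POLG, ZNF276, LRRC41 and FBXO11, had 351%, 124%, 2351% and 67.9% of their counts and shared 2.57%, 19.6%, 19.9% and 22.7% of their exon bases. BRCA1, FANCD2 and CHEK1, the furthest from 0 among the 9 at -1.08, -0.81 and -0.80, had partners too. These had 127%, 133% and 3389% of their counts and shared 0.847%, 0.219% and 0.946% of their exon bases. Larger shares lay with partners under the 25% cut, on the other strand. CHEK1 shared 13.4% with an unnamed gene (20.8% of its counts) and FANCD2 3.03% with FANCD2OS (17.9%). In the constitutive class the medians were -0.19 without and -0.09 with such a neighbour. The part of shared reads in these values was not tested.

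**Figure D3:**
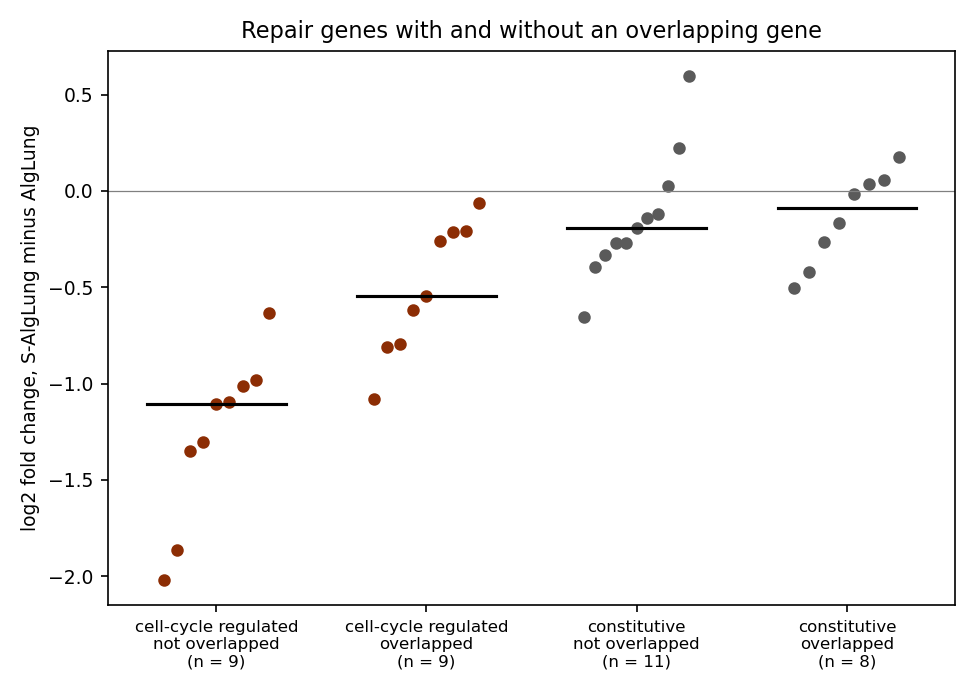
Log2 fold change (S-AlgLung minus AlgLung) of each member, by class and by whether its exons overlap a gene with at least 25% of its counts; bars are medians. Cell-cycle regulated members without such a gene have a median of -1.11 and those with one a median of -0.54.

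Across libraries, the median level of the cell-cycle regulated members was lower in all 3 S-AlgLung libraries than in any AlgLung library. In summed CPM their groups overlapped, at 159.6, 128.1 and 151.5 in AlgLung replicates 1, 2 and 3 and 110.8, 130.1 and 111.2 in S-AlgLung. Their median log2 CPM relative to the AlgLung mean was 0.24, -0.32 and 0.06 in AlgLung replicates 1, 2 and 3 and -0.78, -0.70 and -0.85 in S-AlgLung. For the constitutive members the same medians were -0.00, -0.19 and 0.05, and -0.17, -0.10 and -0.17, with AlgLung replicate 2 the lowest of all 6. AlgLung replicate 2 was the lowest library of its gel for 25 of 37 members and for 15 of the 18 cell-cycle regulated ones. S-AlgLung replicate 3, which stood apart from the other libraries on the second principal component (28.9% of the variance), was the lowest of its gel for 17 members and the highest for 10. Leaving out 1 library at a time gave 1 to 5 members called lower: 1 without AlgLung replicate 1, 1 when S-AlgLung replicate 1 was dropped and 5 when S-AlgLung replicate 3 was. Of all genes, 1.35%, 1.33% and 3.53% were called lower in those 3 fits. The replicate number as a block gave 6 members (2.7% of all genes), GC and length offsets 2 (2.36%), and an adjusted p under 0.01 left 1, EXO1 (1.17%).

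Proliferation genes moved in the same libraries. Of 24 replication genes 14 were called lower (median log2 fold change -0.92), among them RRM2, CDC6 and E2F1 at -1.71, -1.92 and -1.49, and of 24 mitosis genes all 24 were, with a median of -1.83, against 1.99% of all tested genes called lower. The median of the cell-cycle regulated members was thus near that of the replication list. The summed CPM of the members in that class, less XRCC2, TOPBP1 and MSH6, was 19.3%, 15.4% and 17.4% of the replication sum in AlgLung and 18.9%, 18.3% and 22.0% in S-AlgLung, with overlapping groups. With those 3 genes kept, it was 42.6%, 30.9% and 37.9% in AlgLung and 49.5%, 46.8% and 50.2% in S-AlgLung, without overlap. Relative to the mitosis list the whole class made up between 51.1% and 58.3% in AlgLung and between 125.6% and 173.6% in S-AlgLung. The part of proliferation in the members' values was not tested.

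**Figure D4:**
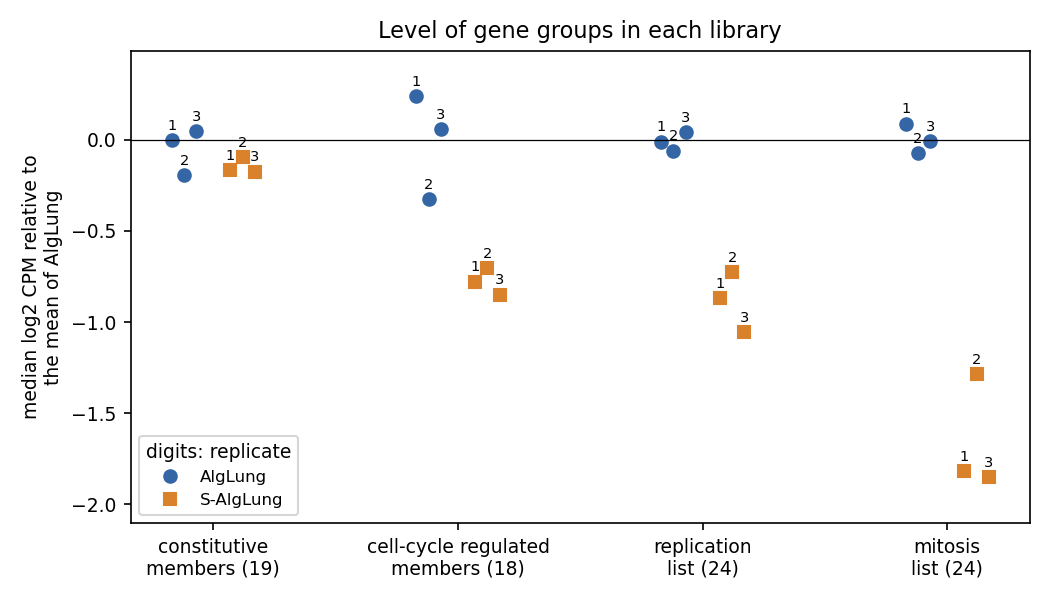
Median log2 CPM of 4 gene groups in each library, relative to each gene's mean in AlgLung; circles are AlgLung, squares S-AlgLung, and digits give the replicate. The cell-cycle regulated members lie at -0.70 to -0.85 in S-AlgLung, beside the replication list, and the constitutive members at -0.10 to -0.17.

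The other genes of these pathways were taken from lists that were, like the members, chosen with earlier results of these data known. Of 32 further homologous recombination genes 3 were called lower (9.38%, against 10.8% of the members and 1.99% of all tested genes) and 0 higher, with a median log2 fold change of -0.05: DNA2, a resection nuclease, from 1.91 ± 0.365 to 0.581 ± 0.067 CPM (mean ± SD, n = 3, log2 fold change -1.71, SE 0.38), RMI2, a partner of BLM, at -1.29 (SE 0.31) and GEN1, a resolvase of crossed strands, at -0.95 (SE 0.26). DNA2 was called in every fit with 1 library left out. RMI2 missed the threshold when replicate 2 of AlgLung (adjusted p = 0.0746) or replicate 1 of S-AlgLung (0.0665) was dropped, and GEN1 when replicate 1 or 3 of AlgLung or replicate 1 or 2 of S-AlgLung was left out and with total-count scaling (adjusted p = 0.0568). Of 16 further Fanconi genes 1 (6.25%) was called, UHRF1, a chromatin reader, at -1.02 (SE 0.29), and of 21 further damage signalling genes 1 (4.76%), CLSPN, the CHEK1 adaptor claspin, at -1.77 (SE 0.49). Both were lost without AlgLung replicate 1 (adjusted p = 0.179 and 0.210), AlgLung replicate 2 or S-AlgLung replicate 1, UHRF1 also without S-AlgLung replicate 2 and with total-count scaling (0.0639), and CLSPN also after GC and length offsets (0.129). None of 10 non-homologous end joining genes and none of 5 further mismatch repair genes was called by edgeR (medians -0.07 and -0.29). At an unadjusted p under 0.05, 1 and 2 of them were lower and 0 higher. Of all tested genes, 5.81% were lower and 9.1% higher at that threshold.

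Library totals ran from 22978408 to 26495444 counts, which limits precision most for the members under 2 CPM. All 12 A549 and lung epithelium markers had enough counts to test, with KRT8 at 2797 to 8270 CPM and AKR1B10 at 4018 to 5570 CPM. Of the 12, 10 had a log2 fold change below 0. EPCAM was low and had separate groups, at 1.53 to 2.34 CPM in AlgLung and 2.99 to 5.39 CPM in S-AlgLung. It was higher in S-AlgLung but not called (log2 fold change 0.97, adjusted p = 0.0729, edgeR). Of 8 leukocyte markers 3 had enough counts to test, and all 3 had separate groups, higher in S-AlgLung. CD68 at 0.98 and CD14 at 0.85 were called higher (3.15% of all tested genes were), and neither call held in every fit with 1 library left out, while LYZ, at 1.08, was not called. The defining leukocyte gene PTPRC was at 0 in 5 libraries and at 0.211 CPM in S-AlgLung replicate 2. Only 3 of 8 fibroblast and 2 of 6 endothelial markers had enough counts to test, and none of these was called by edgeR. Of the 2 endothelial markers tested, PECAM1 had separate groups, higher in S-AlgLung (log2 fold change 0.79, unadjusted p = 0.024, edgeR). The other, CDH5, went the other way with overlapping groups (log2 fold change -0.56, unadjusted p = 0.165, edgeR). The part of these markers in the members' values was not tested.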

How the data were processed

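RNA was sequenced from 6 A549 libraries. STAR 2.7.3a, featureCounts and the build GRCh38 are named in the submitters' processing notes. The version of featureCounts, its annotation, its strand setting and its handling of reads over shared bases were not given. The values the authors deposited are raw counts of reads per gene. AlgLung replicate 1 had 2 columns that differed in 0 genes and were counted as 1 sample. Of 62703 gene IDs, 62625 matched the name table.

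Genes were kept with filterByExpr (minimum count 10), scaled with TMM and tested over all 6 libraries with the quasi-likelihood test of edgeR 4.0.16 (R 4.3.3), with Benjamini-Hochberg adjustment over 18544 genes. Each SE was approximated from the log2 fold change and the F statistic, as their ratio after taking the root of F. Log2 CPM used a prior count of 2. The script was tested on simulated data. Each gene was named by a rule covering all 37 members and, in other repair and proliferation lists, up to 3 called genes with the smallest p. Members, classes and lists were chosen with earlier results of these data known. Lists were described by counts and medians, with no set test. Alternatives used other scaling, filters, DESeq2 1.42.0, limma-voom (limma 3.58.1), a replicate block, an adjusted p under 0.01, each library left out, other class assignments and no overlapped members. Offsets for GC content and length (loess span 0.3, GENCODE release 29) were added after seeing the data.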

Additional observations from a re-analysis of the deposited data

How the results depend on the processing

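Among the medians and counts for the members and classes, 173 of 194 values under an alternative, those over all genes included, stayed within the spread between replicates or within 1.5 times. With 1 library left out, members called lower ran from 1 to 5 (all cell-cycle regulated), all genes called lower from 244 to 662 and higher from 289 to 891, against 369 and 584. With total counts only, 336 genes were called higher, the median of all genes shifted by -0.1 (log2), the constitutive median was -0.28, and FANCF, CHEK2 and PMS2 turned to -0.027, -0.042 and -0.079. With upper-quartile factors PMS2 turned to -0.0029. With GC and length offsets 2 members, both cell-cycle regulated, were called lower, the constitutive median was -0.059, and CHEK2, PMS2 and MSH6 turned to -0.056, -0.016 and 0.088. At an adjusted p under 0.01, 1 member was called lower (cell-cycle regulated), with 217 genes lower and 323 higher. Without overlapped members the median was -0.51 over all members and -1.11 over cell-cycle regulated ones. Leaving out 1 library also turned the sign of values near 0: PALB2 ran from -0.29 to 0.053, RAD51D from -0.17 to 0.094, FANCF from -0.12 to 0.15, FANCG from -0.37 to 0.0069, CHEK2 from -0.20 to 0.20 and PMS2 from -0.070 to 0.12. Apart from what each alternative removes, the cause was not tested. Same-numbered replicates shared deviations at correlations of 0.07, 0.29 and 0.04, so the numbers were not taken to pair samples. With the replicate block 6 members were called lower, FANCD2 (adjusted p = 0.0379) and CHEK1 (0.0443) joining the 4, with 500 genes lower and 800 higher. BRCA2, XRCC2, RAD51AP1, POLQ and FANCB could not be tested at a mean of at least 1 CPM. Depth limits BRCA2, XRCC2, RAD51AP1, POLQ and FANCB most, at 85 to 117 counts each.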

Other observations

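Repair of damaged bases and bulky lesions, which does not use homologous recombination, was also measured. Of 22 genes of base excision and single-strand break repair, 1 was called lower and 0 higher (edgeR, median log2 fold change 0.02). It was NEIL3, a DNA glycosylase that also acts on crosslinks, at 2.37, 2.20 and 2.73 CPM in AlgLung and 0.226, 0.717 and 0.710 CPM in S-AlgLung, without overlap (log2 fold change -2.11, SE 0.40, adjusted p = 0.000854). Its call held in all fits with 1 library left out. None of 17 nucleotide excision repair genes was called by edgeR (median -0.08). At an unadjusted p under 0.05, 1 was lower and 0 higher, against 5.81% of all tested genes lower and 9.1% higher. Over all 7 further repair lists 6 of 123 genes were called lower (4.88%) and 0 higher, against 1.99% of all tested genes called lower.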
